A study of Arabidopsis thaliana with 34 samples.

Results

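Of the 33321 loci counted in aerial tissue of Arabidopsis thaliana seedlings, 43 were expressed in the accession C24 and far lower in the accessions Ler and Col. They were chosen from 6 libraries, the 2 lettered A and B of each accession. A locus was taken when its mean in C24 was at least 1 CPM (counts scaled to the library total and by the trimmed mean of M values, TMM) and at least 8 times its mean in Ler and in Col. FLC and AOP2 were left out. The levels of the 43 genes in these 6 libraries therefore describe the choice and carry no test. The 12 hybrid libraries lettered A and B and the libraries lettered after C played no part in the choice, and the tests below rest on them.

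The series counted mRNA in pools of 5 to 15 seedlings, harvested as whole aerial parts at an age of 15 days, from 9 genotypes. The F1 hybrids with a C24 parent were C24xLer (5 libraries), LerxC24 (5), C24xCol (2) and ColxC24 (2), and the hybrids without one were ColxLer (2) and LerxCol (2). The inbred accessions were C24 (7 libraries), Ler (7) and Col (2), with no mutation, transgene or treatment named for any genotype. Which parent of a cross was the mother is not stated in the labels. Since whole shoots were pooled, fewer cells of a type and less RNA per cell cannot be told apart. The 18 libraries lettered A and B held 72386257 to 86704381 counts, and the 12 used of letters after C held 36324848 to 88686247. Markers of green tissue were high (RBCS1A at 9710 to 18200 CPM in the 30 libraries not lettered C), while the 5 root markers were low, with COBL9 at 0.407 to 0.848 CPM, CASP1 at 0.274 to 0.937 CPM, EXPA7 at 0.726 to 2.85 CPM, TIP2-3 at 3.58 to 4.8 CPM and IRT1 at 0.281 to 9.37 CPM. In the libraries Ler D and Ler E, and in C24 E, C24 F and C24 G, part of the 43 genes went against the pattern of letters A and B, as described below, so results that rest on them are given with and without them or gene by gene.

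Inbred accessions of Arabidopsis differ in gene content, in promoter sequence and in which repeats are silenced, and a transcript can for that reason be present in one accession and missing in another. An F1 hybrid carries one copy of each gene from either parent. A gene whose transcripts come from the copy of one parent, working as it does in that parent, is transcribed in the hybrid at 0.5 times that parent's level, and that level is the yardstick used here.

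By gene type the 43 were 23 pseudogenes, 18 protein-coding genes and 2 non-coding RNA genes. Pseudogenes made up 53.5% of them, while they made up 3.93% of the 23311 loci at 1 CPM or more in C24. The pseudogene class of the annotation includes SADHU3-2 and SADHU10-1, copies of the Sadhu family of non-autonomous retroposons. Among the protein-coding genes, 7 had a product of unknown function. The others included THI2.2, a thionin (a small cysteine-rich antimicrobial peptide), AT1G61500, a lectin receptor-like kinase related to the S-locus family, AGL38, a type I MADS-box transcription factor, CYP706A2, a cytochrome P450, SCPL12, a serine carboxypeptidase-like protein, and AT2G07750, a DEAD-box RNA helicase. The genes lay on all 5 chromosomes, with 8, 10, 5, 10 and 10 on chromosomes 1 to 5. Of the 43, 13 were within 100 kb of another. AT1G61500 and the pseudogene AT1G61510 were neighbours, 1042 bases apart, and AT3G28310 with AT3G28320 and AT5G28450 with AT5G28463 had 1 annotated locus between them. Counts are uncertain for AT1G47950, AT2G10735 and SADHU10-1, which overlap another annotated gene, since the use of strand in counting is not given. They are also uncertain for 12 genes with a copy elsewhere of at least 90% identity over 50% or more of their length. Among these 12 were AT2G13140 and AT2G07750, CYP706A2 with the locus AT4G22690 (96.5% identity), AT4G04223 (99.2%), AT5G59620 (98.1%) and the pair AT4G07843 and AT4G07874, which are copies of each other (98.2%).

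The 250 bases before the annotated start are shown for 3 genes on which the results turn: THI2.2 and AT2G13140, which were high in C24 A and B and low in C24 E, F and G, and AT5G28450, which differed between the C24/Ler and the C24/Col hybrids. They are the Col reference sequence of NCBI's TAIR10.1 assembly (RefSeq annotation), written 5′ to 3′ on the strand of the gene, so they come from an accession in which these genes were low. The windows are chr5:14562864-14563113 for THI2.2 (minus strand), chr2:5423068-5423317 for the pseudogene AT2G13140 (plus strand) and chr5:10374191-10374440 for AT5G28450 (minus strand). Capitals mark matches, on either strand, to TATAAA (the TATA box), TTGAC (the core of the W-box bound by WRKY factors) or CACGTG (the G-box).
THI2.2: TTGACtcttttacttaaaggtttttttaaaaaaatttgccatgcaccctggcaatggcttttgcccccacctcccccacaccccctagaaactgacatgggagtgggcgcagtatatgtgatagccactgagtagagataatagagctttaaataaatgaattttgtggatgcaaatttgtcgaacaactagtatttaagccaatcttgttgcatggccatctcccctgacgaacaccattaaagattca
AT2G13140: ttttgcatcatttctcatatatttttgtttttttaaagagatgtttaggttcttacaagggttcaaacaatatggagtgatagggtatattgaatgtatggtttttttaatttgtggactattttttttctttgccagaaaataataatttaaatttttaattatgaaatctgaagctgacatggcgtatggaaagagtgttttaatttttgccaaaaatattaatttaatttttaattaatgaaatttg
AT5G28450: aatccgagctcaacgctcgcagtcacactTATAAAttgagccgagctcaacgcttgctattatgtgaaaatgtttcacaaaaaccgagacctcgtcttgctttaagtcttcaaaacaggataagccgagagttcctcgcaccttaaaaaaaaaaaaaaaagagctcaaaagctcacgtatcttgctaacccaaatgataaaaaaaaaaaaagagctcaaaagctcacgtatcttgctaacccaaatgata

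The window of THI2.2 held TTGAC at its far end, that of AT5G28450 held TATAAA, and that of AT2G13140 held none of the motifs. TATAAA was in the windows of 13 of the 43 genes (30.2%), against 45.8% of 32564 windows of annotated loci. Split by type, it was in 9 of the 18 protein-coding genes (50% against 47.7% of all protein-coding windows) and in 3 of the 23 pseudogenes (13% against 35%). TTGAC was in 18 windows (41.9% against 44.5%) and CACGTG in 2 (4.65% against 5.86%). None of these motifs contains another. A match is a string of letters in the reference and not a known site.

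Levels in C24 spanned a wide range. Of the 43 genes, 15 averaged 1 to 5 CPM in C24 A and B, 16 averaged 5 to 20 CPM, 8 averaged 20 to 100 CPM and 4 were at 100 CPM or more. In 18 of them the means of Ler and of Col were both under 0.1 CPM and in 30 both were under 1 CPM. The highest was THI2.2, with 177 and 144 CPM in C24 A and B, 1.73 and 1.86 CPM in Ler and 10.6 and 9.99 CPM in Col. AT1G61500 followed with 132 and 147 CPM in C24, 3.92 and 4.39 CPM in Ler and 6.37 and 6.04 CPM in Col. AT5G28450, annotated as a chlorophyll a/b binding family protein, had 135 and 114 CPM in C24, 0.616 and 0.506 CPM in Ler and 0.861 and 0.883 CPM in Col. In each of these 3 genes both C24 libraries were above every Ler and Col library, but these libraries chose the genes, so nothing is read from that.

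AT2G05642, an OB-fold nucleic acid-binding protein, and the pseudogene AT3G44215 averaged 108 and 99.8 CPM in C24. AT4G29200, annotated as related to beta-galactosidase, averaged 55.9 CPM, SCPL12 42.9 CPM, AT2G13140 25.3 CPM, the RNA-binding protein gene AT5G53700 23.5 CPM, the pseudogene AT5G26345 22 CPM, AGL38 21.9 CPM and the glutamine amidotransferase-like gene AT1G66860 21.7 CPM. The pair of C24 libraries was uneven in AT1G66860 (12.1 CPM in A and 31.3 CPM in B) and in AT3G28320 (3.32 and 10.9 CPM). At the edge of the rule, SADHU10-1, AT1G47950 and AT5G28463 were the 3 genes closest to 8 times from above, and AT2G22905 (7.35 times the higher of Ler and Col), AT3G28270 (7.35 times) and AT1G43590 (7.26 times) were the closest from below. AT3G28270 had 269 CPM in C24 and also 36.7 CPM in Ler and 27.5 CPM in Col. The largest ratios were in AT4G07874, AT2G12290 and AT1G36078, each at 0.0195 CPM or less in the means of Ler and of Col.

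**Figure D1:**
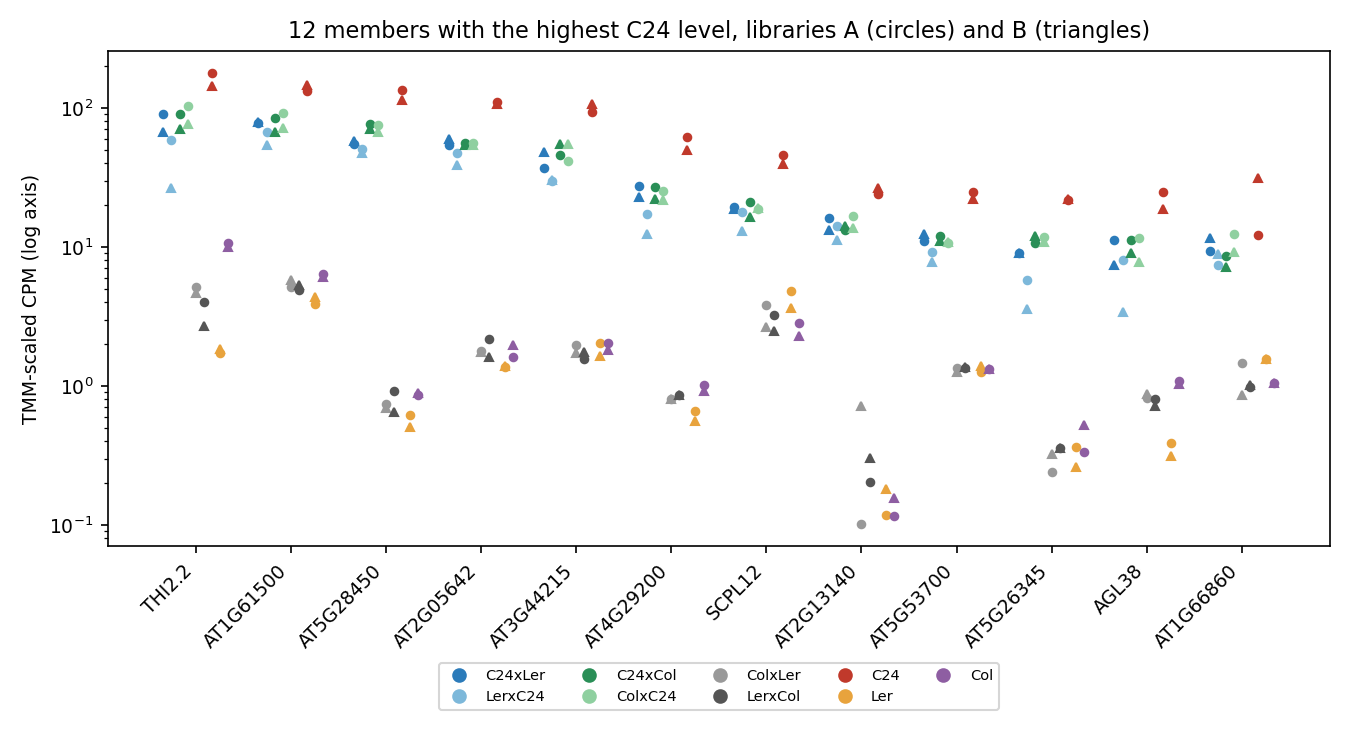
TMM-scaled CPM (log axis) of the 12 genes with the highest C24 level, in libraries A (circles) and B (triangles) of the 6 hybrids, C24, Ler and Col. The 4 hybrids with a C24 parent sit just under C24, and ColxLer, LerxCol, Ler and Col sit lower, from 10.6 CPM for THI2.2 in Col A down to 0.102 CPM for AT2G13140 in ColxLer A.

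All 43 genes were higher in the hybrids with a C24 parent than in the hybrids without one. In each of the 43, the lowest of the 8 libraries A and B of C24xLer, LerxC24, C24xCol and ColxC24 was above the highest of the 4 libraries of ColxLer and LerxCol, as in 2.16% of all 33321 loci. All 43 passed the test, higher in the C24 hybrids (edgeR's quasi-likelihood test with Benjamini-Hochberg adjustment over 29617 genes, adjusted p below 0.05), where 2.77% of all genes tested were called higher. The median log2 difference was 4.59, against 0.00226 over all genes, and ranged from 1.71 to 9.35. THI2.2 had 89.8 and 66.8 CPM in C24xLer, 58.8 and 26.7 CPM in LerxC24, 90.8 and 70.8 CPM in C24xCol and 102 and 76.6 CPM in ColxC24. In the hybrids without C24 it had 5.13 and 4.65 CPM in ColxLer and 4.04 and 2.69 CPM in LerxCol, so the groups did not overlap (log2 4.11 ± 0.28 SE, adjusted p = 9.55e-05).

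AT5G28450 had 55.3 and 58.0 CPM in C24xLer, 50.4 and 47.2 CPM in LerxC24, 77.0 and 70.0 CPM in C24xCol and 75.9 and 67.4 CPM in ColxC24. Its 4 values in ColxLer and LerxCol were 0.738, 0.692, 0.917 and 0.651 CPM, well clear of the rest (log2 6.37 ± 0.11, adjusted p = 7.44e-09). AT2G12290, AT4G07810 and AT4G07843 had no count in the 4 libraries of ColxLer and LerxCol. Against a floor of 3 counts over those libraries, the C24 hybrids were at least 108-fold higher in AT2G12290, at least 112-fold higher in AT4G07810 and at least 53.9-fold higher in AT4G07843. The smallest difference was in AT5G28463 (1.71 ± 0.23, adjusted p = 0.00219), which had 0.321 to 0.713 CPM in the C24 hybrids and 0.089 to 0.184 CPM in ColxLer and LerxCol.

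Median levels in 3 of the 4 C24 hybrids lay near 0.5 times the C24 level. In 39 of the 43 genes the highest of the 8 C24 hybrid libraries was below both C24 libraries (6.16% of all loci), but these C24 libraries chose the genes as high, so nothing is read from that count. Set against 0.5 times the C24 mean of A and B, the median over the 43 genes was 0.974 in C24xLer, 0.755 in LerxC24, 0.993 in C24xCol and 0.992 in ColxC24, and 0.0370 in ColxLer and 0.0362 in LerxCol. The range over genes was 0.574 to 1.35 in C24xLer, 0.425 to 1.70 in LerxC24, 0.598 to 1.41 in C24xCol and 0.541 to 1.55 in ColxC24. Between 0.75 and 1.25 on this scale were 40 genes in C24xLer, 21 in LerxC24, 36 in C24xCol and 32 in ColxC24. Below 0.75 were 2 genes in C24xLer, 21 in LerxC24, 3 in C24xCol and 5 in ColxC24. Protein-coding genes and pseudogenes had similar medians: 0.984 and 0.974 in C24xLer, 0.739 and 0.766 in LerxC24, 0.975 and 1.01 in C24xCol, and 1.00 and 0.980 in ColxC24. The C24 level that serves as the base here is the one that chose the genes.

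**Figure D2:**
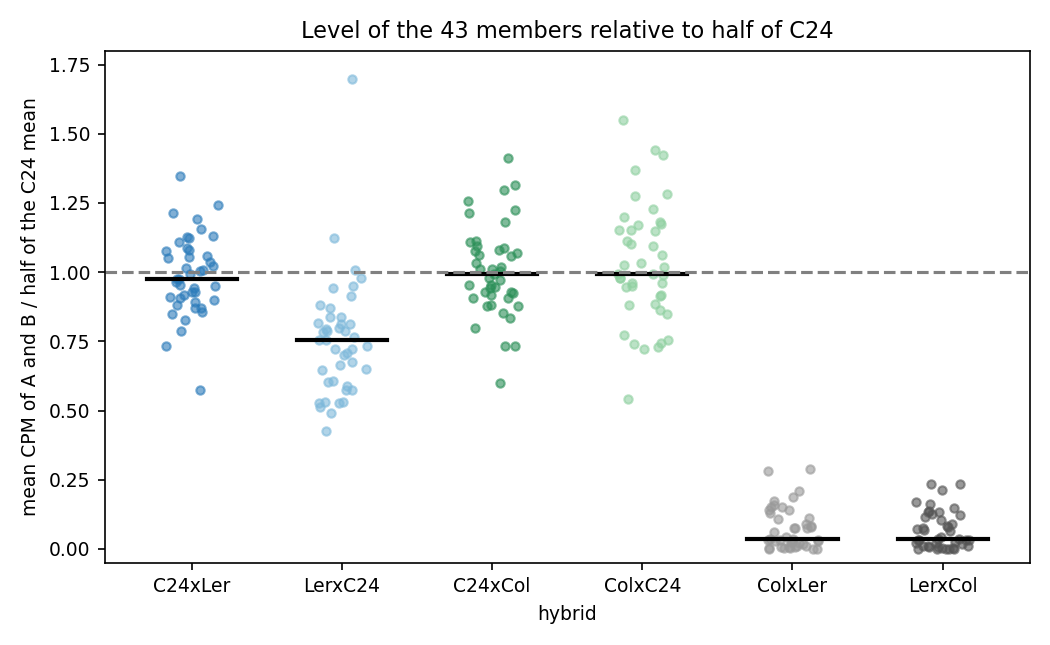
Mean CPM of libraries A and B of each hybrid divided by 0.5 times the C24 mean, 1 point per gene for the 43 genes, with the median as a black line and 0.5 times C24 as a dashed line at 1. The medians of C24xLer, C24xCol and ColxC24 (0.974, 0.993 and 0.992) lie on the dashed line, that of LerxC24 (0.755) below it, and those of ColxLer and LerxCol (0.0370 and 0.0362) near 0.

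Among genes at 5 CPM or more in C24, those highest over the 4 C24 hybrids included AT4G04223, a non-coding RNA gene, at 1.21 times this level in C24xLer, 0.816 in LerxC24, 1.41 in C24xCol and 1.42 in ColxC24. AT3G28320 was at 1.13, 0.942, 0.993 and 1.44 in the same order of hybrids, AT2G13140 at 1.16, 1.01, 1.08 and 1.20, and AT1G61500 at 1.13, 0.872, 1.09 and 1.17. At the low end, AT2G15160 was at 0.734, 0.575, 0.907 and 0.745, AT1G47950 at 0.927, 0.590, 0.836 and 0.722, AT2G07750 at 1.08, 0.531, 0.732 and 0.740, and AT4G29200 at 0.900, 0.528, 0.877 and 0.848. AT4G07874 (0.880, 0.674, 0.798 and 0.756) and AGL38 (0.850, 0.526, 0.929 and 0.883) were also among the 6 lowest. In each of these 6 the lowest value was that of LerxC24, as in 38 of all 43 genes. By the means of A and B, the highest value of the 43 was 1.70, in LerxC24, so none reached the C24 mean. In libraries after C some single values passed that C24 mean. AT3G28320 was at 183% and 157% of it in LerxC24 U1 and U2, while C24 D to G ranged from 59.3% to 329%.

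LerxC24 was the lowest of the 4 C24 hybrids in 38 of the 43 genes, C24xLer in 0, C24xCol in 2 and ColxC24 in 3. How often each hybrid was lowest over all loci was not taken, so nothing is read from these counts alone. AT5G26345, an annotated pseudogene, had 9.11 and 9.07 CPM in C24xLer, 5.76 and 3.59 CPM in LerxC24, 10.7 and 12 CPM in C24xCol, 11.9 and 10.8 CPM in ColxC24 and 21.8 and 22.2 CPM in C24. AT4G29200 had 27.3 and 23.0 CPM in C24xLer, and 17.2 and 12.3 CPM in LerxC24. AGL38 had 11.2 and 7.39 CPM in C24xLer, and 8.08 and 3.42 CPM in LerxC24, where the libraries of the 2 directions overlapped. Both LerxC24 libraries were below both C24xLer libraries in 30 of the 43 genes, as in 12.9% of all loci, and both were above in 0, as in 12.7% of all loci. For C24xCol and ColxC24 the same counts were 4 genes with both C24xCol libraries below and 3 with both ColxC24 libraries below. The share over all loci was not taken for this pair, so nothing is read from these counts. The 2 LerxC24 libraries differed from each other, more than the C24xLer libraries did. The median over the 43 genes was 0.927 and 1.00 times 0.5 of C24 in C24xLer A and B, against 0.811 and 0.666 in LerxC24 A and B. In the same libraries, the 41 genes chosen by the same rule for expression in Ler alone had medians of 0.952 and 0.964 times 0.5 of Ler in C24xLer A and B, against 1.00 and 1.39 in LerxC24 A and B. The part of this difference between libraries in the results on LerxC24 was not tested.

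The test of C24xLer against LerxC24 in letters A and B called 0 of the 43 genes and 0 of 29617 genes (edgeR, percent called 0). At an unadjusted p below 0.05, 15 of the 43 genes were higher in C24xLer and 0 lower, where 3.7% of all genes passed in either direction. DESeq2 called 2 of the 43 higher, AT2G07750 and AT5G26345, where 6 of 32102 genes were called higher and 12 lower. The count of 15 fell without LerxC24 B or without C24xLer B. Such a fit leaves 1 library of that hybrid, and the share over all genes was not taken there. The log2 difference was positive in 41 of 43, with a median of 0.40 against 0.00 over all genes. It was largest in AT2G07750 (1.02), which had 3.30 and 2.64 CPM in C24xLer, against 1.5 and 1.42 CPM in LerxC24. Between C24xCol and ColxC24, 0 of 43 genes and 0 of 29617 were called (edgeR and, for the 43, DESeq2 as well), 0 of 43 had an unadjusted p below 0.05 (2.45% of all genes), and the median was 0.00. The direction difference in the C24/Ler crosses minus that in the C24/Col crosses was called in 0 of the 43 genes by edgeR and by DESeq2, where edgeR called 0.00338% of all genes. Its median was 0.45, and 11 of 43 had an unadjusted p below 0.05 against 2.3% of all genes. The count of 11 also fell without LerxC24 B, C24xCol B or C24xLer B, again with no share over all genes taken.

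The order was not seen in the other libraries of these crosses. The letters of the LerxC24 libraries there are not settled, so direction cannot be told apart from letter. In C24xLer D and E against the LerxC24 libraries U1 and U2 (columns whose letter matches no LerxC24 sample), the median log2 difference over the 43 genes was 0.06, and 24 of 43 were positive. By edgeR 0 were called, and 3 had an unadjusted p below 0.05 (1 higher and 2 lower), where 9.5% of all genes did. AT2G07750 had 4.05 and 3.52 CPM in C24xLer D and E, against 3.30 and 2.92 CPM in LerxC24 U1 and U2. AT4G29200 had 44.6 and 36.5 CPM in C24xLer, against 41.6 and 40.6 CPM in LerxC24, so that the groups overlapped.

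**Figure D3:**
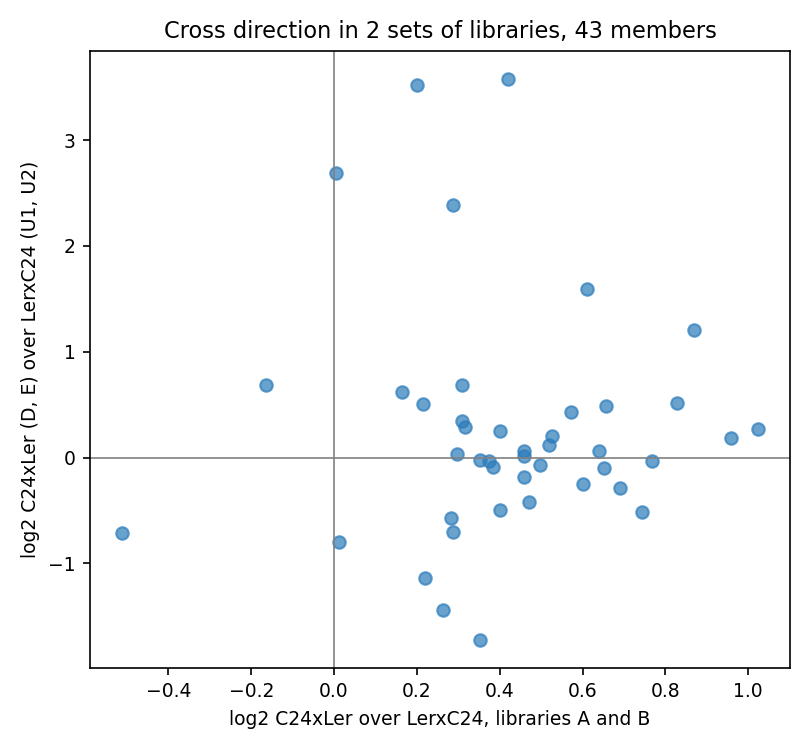
Log2 difference of C24xLer over LerxC24 for the 43 genes, in libraries A and B (horizontal axis) and in C24xLer D and E over LerxC24 U1 and U2 (vertical axis). Nearly all points (41 of 43) lie right of 0, while they spread on both sides of 0 vertically (24 of 43 above), and the 4 points above 2 vertically are AT2G10735, AT2G12290, AT2G12740 and AT2G13140.

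C24/Ler hybrids had less of some of these transcripts than C24/Col hybrids did. In letters A and B, 6 of the 43 genes were lower and 0 higher in C24/Ler hybrids (both directions averaged), where 4.84% of all genes were called lower and 3.48% higher. The median log2 difference over the 43 was -0.21, against 0.00 over all genes. The 6 genes were AT5G26345 (-0.80 ± 0.14 SE, adjusted p = 0.00696), AT5G28450 (-0.46 ± 0.09), AT5G25920 (-0.49 ± 0.10), AT4G04223 (-0.51 ± 0.11), SADHU3-2 (-0.86 ± 0.21) and AT3G44215 (-0.45 ± 0.12, adjusted p = 0.0449). SADHU3-2 had 5.46 and 5.55 CPM in C24xLer and 3.81 and 3.17 CPM in LerxC24, against 6.29 and 7.17 CPM in C24xCol and 9.06 and 9.74 CPM in ColxC24. AT3G44215 had 36.9 and 48.4 CPM in C24xLer and 29.9 and 30.5 CPM in LerxC24, against 45.9 and 55.1 CPM in C24xCol and 41.2 and 54.7 CPM in ColxC24. SADHU3-2 did not overlap between the families, while C24xLer B of AT3G44215 lay inside the range of the C24/Col hybrids.

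These calls leaned on LerxC24. With C24xLer alone set against the C24/Col hybrids, none of the 6 was called, the median of the 43 was -0.03, and the 1 gene called was AT2G07750, higher in C24xLer by 0.55. Of all 29617 genes, 496 were then called higher and 774 lower. With LerxC24 alone 7 were called, all lower, with a median of -0.40, and AT5G26345 came to -1.28. There 700 of all 29617 genes were called higher and 926 lower. Of the 6 calls, that of AT5G26345 held in each of 12 fits that left out 1 library. AT5G28450 and AT5G25920 were each lost in 3 of the 12 fits, AT4G04223 in 5, SADHU3-2 in 8 and AT3G44215 in 10, at adjusted p up to 0.0536, 0.0604, 0.0756, 0.133 and 0.156 in that order of genes. The count of 6 also fell without C24xLer A, LerxC24 B, C24xCol A, C24xCol B or ColxC24 B. Each of these fits leaves 1 library of a hybrid, and counts over all genes are not given for them.

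The 4 further C24 libraries, D to G, give the level of the 43 genes in samples that did not choose them. Their mean over that of C24 A and B had a median of 1.07 over the genes and a range of 0.113 to 2.18. It was within 2 times in 32 genes, below 0.5 in 10 and above 2 times in 1. AT4G29200 had 109, 98.3, 107 and 102 CPM in C24 D to G, against 1.06, 1.36, 0.594 and 0.775 CPM in Ler D to G. AT2G05642 had 92.9, 110, 140 and 149 CPM in C24, against 2.24, 2.62, 1.92 and 3.07 CPM in Ler. In both genes the groups lay far apart and the C24 level was near or above that of A and B.

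In these libraries 35 of the 43 genes were called higher in C24 than in Ler and 0 lower (edgeR, 29851 genes tested), where 3.82% of all genes were called higher and 4.62% lower. At an unadjusted p below 0.05, 42 of 43 were higher, where 21.6% of all genes passed in either direction, and the median log2 difference was 4.51, against -0.01 over all genes. AT2G05642 came to 5.65 ± 0.22 (adjusted p = 7.5e-08) and AT4G29200 to 6.75 ± 0.24 (4.39e-08). THI2.2 came to 4.34 ± 0.99 (0.0202), lost in 3 of 12 fits that left out 1 library. AT1G61500 came to 2.06 ± 0.53 (0.0341), lost in 8 of the 12. The 8 genes not called were AT1G43387, AT1G66860, AT2G12290, AT2G12410, SADHU3-2, AT3G44215, AT5G28450 and AT5G53700. With the letter as a replicate block 34 were called, where 3052 of 29819 genes were higher. AT2G12290 (7.78, adjusted p = 0.00224) and AT2G12410 (3.10, 0.0288) then passed, and AT3G28310, AT3G28320 and AT5G37120 did not. AT1G66860 had 1.76, 2.52, 9.72 and 6.14 CPM in C24 D to G, against 2.07, 4.55, 3.75 and 3.82 CPM in Ler D to G, so that the groups overlapped (0.50 ± 0.48, adjusted p = 0.623). In A and B, which chose the gene, the same groups did not overlap (12.1 and 31.3 CPM in C24, 1.55 and 1.56 CPM in Ler). The D to G difference came to -0.05 without C24 F.

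Ler D and Ler E carried more transcripts of 10 of the 43 genes than the other Ler libraries did. These 10, picked after the values were seen because their mean of Ler D and E was at least 10% of C24 and 3 times the highest of Ler A, B, F and G, were AT1G43387, AT1G61500, AT3G28310, SADHU3-2, AT3G44215, SADHU10-1, AT5G28450, AT5G37120, AT5G53700 and AT5G59620. Their median level, as a share of the C24 mean of A and B, was 40.6% in Ler D and 39.9% in Ler E, against 2.52% in Ler A, 2.58% in Ler B, 2.6% in Ler F and 1.83% in Ler G. For the other 33 genes it was 1.51% in Ler D and 1.94% in Ler E. The split was not sharp. Within the 10, SADHU10-1 had 14.6% and 9.04% and AT5G59620 10.0% and 12.7% in Ler F and G. Outside them, AT3G28320 had 22.1% and 28.4% in Ler D and E, against 5.07% and 2.06% in Ler F and G. AT3G44215 had 38.3 and 41.2 CPM in Ler D and E, against 1.5 and 1.55 CPM in Ler F and G. AT5G28450 had 27.5 and 24.4 CPM in Ler D and E, against 1.91 and 1.03 CPM in Ler F and G. SADHU3-2 had 8.93 and 6.93 CPM in Ler D and E, 0.106 CPM in Ler F and no count in Ler G. THI2.2 and AT2G13140, at 2.09 and 0.447 CPM and at 0.0106 and 0.0109 CPM in Ler D and E, were not among the 10. The share of all loci that met the same cuts was not taken, so the count of 10 is not read as particular to the 43.

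Summed over the 43 genes, Ler D stood at 15.4% and Ler E at 12.2% of the C24 sum, against 2.47% to 2.88% in Ler A, B, F and G. Without Ler D and Ler E 36 genes were called higher in C24, where 2153 of 29554 genes tested were called higher. AT3G44215 then came to 6.13 (adjusted p = 1.15e-07), AT5G28450 to 5.56 (6.19e-05), SADHU3-2 to 8.18 (3.36e-06), AT1G43387 to 8.27 (3.14e-06) and AT5G53700 to 4.53 (1.8e-06). Of the genes not called with all 8 libraries, these 5 passed. AT2G13140 (7.83, adjusted p = 0.0871), AT2G10735, AT2G12740 and AT2G13310 no longer passed. What set Ler D and Ler E apart was not tested.

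**Figure D4:**
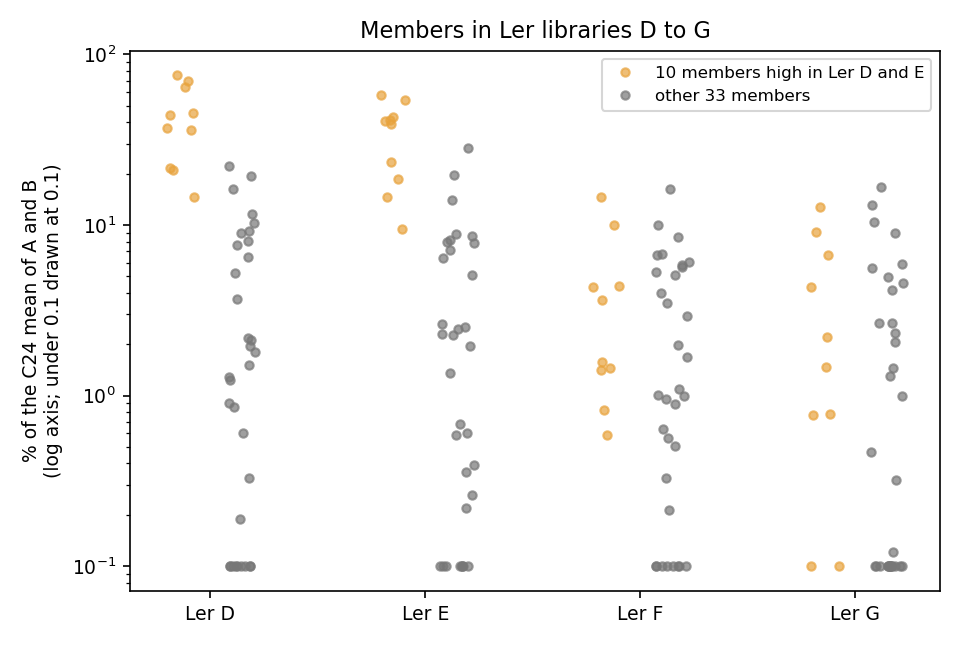
Level of each gene in Ler libraries D to G as a percentage of the C24 mean of A and B (log axis, values under 0.1% drawn at 0.1), with the 10 genes high in Ler D and Ler E in orange and the other 33 in grey. The orange points have medians of 40.6% and 39.9% in Ler D and Ler E and of 2.6% and 1.83% in Ler F and Ler G, where they lie among the grey ones.

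A set of 7 genes was low in C24 itself in the libraries lettered E, F and G. Picked after the values were seen, as under 20% of the C24 mean of A and B in all 3 libraries, they were THI2.2, AGL38, AT2G13140, AT2G10735, AT2G12290, AT2G12410 and AT2G12740, 3 of them protein-coding and 4 pseudogenes. THI2.2 had 52.5 CPM in C24 D and 4.47, 12.1 and 7.83 CPM in C24 E, F and G. AT2G13140 had 13.1 CPM in C24 D and 1.21, 0.814 and 0.333 CPM in C24 E, F and G. AGL38 had 7.21 CPM in C24 D and 3.90, 3.76 and 3.37 CPM in C24 E, F and G. The median of the 7 was 47.8% of the C24 mean of A and B in C24 D, 5.02% in C24 E, 7.09% in C24 F and 4.6% in C24 G. For the other 36 genes the medians were 108%, 94.7%, 125% and 128%.

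The hybrid libraries lettered after C had the same split. C24xLer D had a median of 16.7% of the C24 mean of A and B for the 7 genes and C24xLer E 1.33%, while LerxC24 U1 and U2 had 2.2% and 2.03%. For the other 36 genes these 4 libraries were at 52.7%, 56.6%, 54.1% and 51.2%. In letters A and B the 7 genes were at 58.2% and 42.4% in C24xLer and 48.1% and 36.2% in LerxC24, close to the other 36 (45.5% and 50.8% in C24xLer, 39.9% and 32.6% in LerxC24). Taken against 0.5 times the C24 library of the same letter, the 7 genes had a median of 0.766 in C24xLer D and 0.695 in C24xLer E, against 0.966 and 1.07 for the other 36. The 7 genes therefore differed between library letters in C24 and in its hybrids alike. What the letters stand for beyond replicate names is not given in the labels.

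Of these 7 genes, 5 lay on chromosome 2 between positions 4224085 and 5425079 (TAIR10.1). In the same stretch, which held 286 loci, 24 other loci were at 1 CPM or more in C24 A and B, and 0 of them were under 20% in the mean of C24 E, F and G. Their median was 108%, with a range of 48.6% to 169%. AT2G13310, the next of the 43 genes on that chromosome, at 99050 bases from AT2G13140, had 0.0641 CPM in C24 E but 0.866 and 0.372 CPM in C24 F and G, against 1.04 and 1.27 CPM in C24 A and B.

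**Figure D5:**
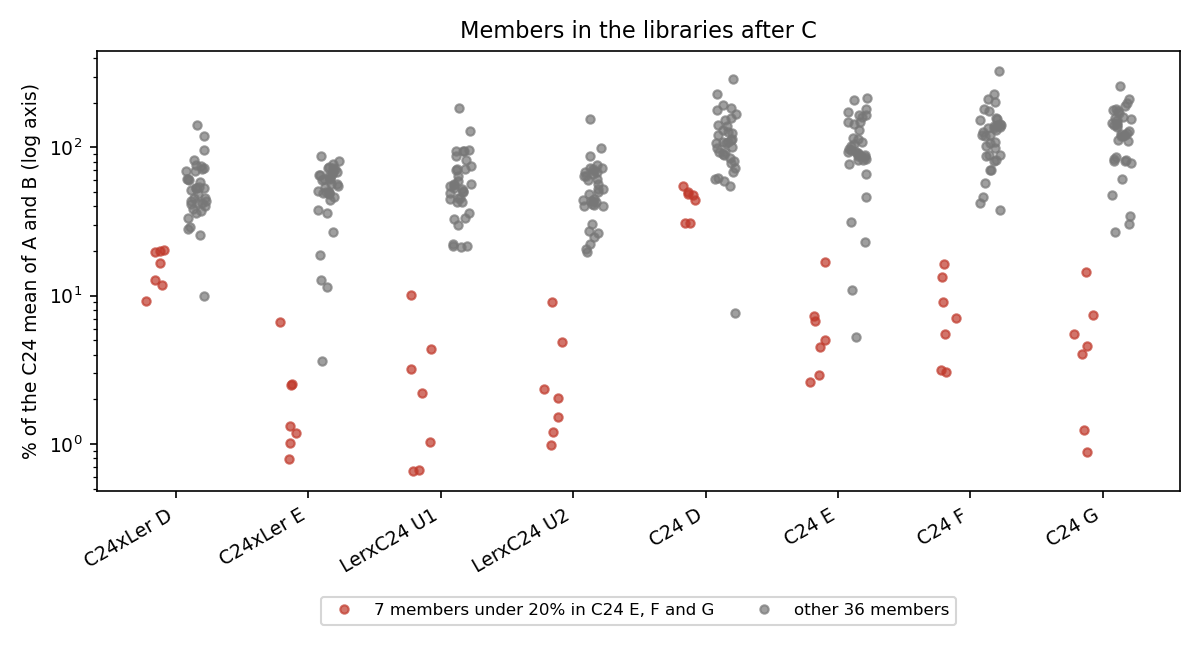
Level of each gene as a percentage of the C24 mean of A and B (log axis) in C24xLer D and E, LerxC24 U1 and U2 and C24 D to G, with the 7 genes under 20% in C24 E, F and G in red and the other 36 in grey. The red points lie highest in C24 D (median 47.8%) and C24xLer D (16.7%) and have medians of 1.33% to 7.09% in the other 6 libraries, while grey medians are 51.2% to 56.6% in hybrids and 94.7% to 128% in C24.

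In the libraries after C the C24/Ler hybrids were set against the arithmetic mean of C24 and Ler D to G. Of the 43 genes 0 were called (edgeR, with 4 libraries of each parent and 2 of each hybrid), where 0.0536% of all genes were called in either direction. At an unadjusted p below 0.05, 4 of 43 were lower and 0 higher, where 7.58% of all genes passed in either direction, and the median was -0.29 against -0.02 over all genes. The 4 were AT5G28463 (-0.81 ± 0.18, adjusted p = 0.171), AT5G26345 (-0.52 ± 0.16, 0.341), AT1G36078 (-0.75 ± 0.23, 0.361) and AT4G29200 (-0.36 ± 0.16, 0.637). Without Ler D and Ler E the median over the 43 genes was -0.14, against -0.02 over all genes. Of the 43, 0 were then called, where 7 of 29554 genes were called higher and 56 lower. At an unadjusted p below 0.05, 6 were lower and 1 higher (8.82% of all genes in either direction). Against 0.5 times C24 in place of the mean of the parents, the median over the 43 was -0.12, and 0.98 over all genes. AT1G36078 had 1.56 and 1.99 CPM in C24xLer D and E and 1.23 and 1.23 CPM in LerxC24 U1 and U2, against 5.94, 5.11, 4.45 and 4.48 CPM in C24 D to G. All 4 hybrid values were below 0.5 times the lowest C24 value. Relative to 0.5 times the C24 mean of D to G, the median over the 43 genes was 0.93 in C24xLer (D and E) and 0.931 in LerxC24 (U1 and U2), with ranges of 0.679 to 1.53 and 0.12 to 3.4.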

How the data were processed

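mRNA was counted in 34 libraries of aerial seedling tissue. The values deposited by the authors are raw, unnormalized read counts for each locus in a single table. The submitters' processing notes name TAIR10 and FastQC. The aligner, the counter and the use of strand were not given in the sources used here, so counts of overlapping genes and of near-identical copies can be split or mixed. Reads that differ from the reference can be lost in C24 and Ler more than in Col.

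Columns were mapped to samples by name. In LerxC24, 2 columns whose letter is in no title of that group were used as replicates without a letter (U1 and U2). The 4 libraries lettered C, with 13198638 to 20435372 counts and 11393 to 11692 loci at 0 (2066 to 2742 in the others), entered no comparison other than a stated alternative. No replicate pair agreed within sampling noise (67 pairs, lowest chi-square per gene 24.8).

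CPM used TMM factors over the 18 libraries A and B, or over the 30 libraries not lettered C for values after C. Tests were edgeR 4.0.16 quasi-likelihood tests in R 4.3.3 (DESeq2 1.42.0 as an alternative), with filterByExpr, adjusted over all genes tested, and were tested on simulated data. Letters A and B tests used the 12 hybrid libraries and the others the 12 libraries of letters D to G, U1 and U2. The mean of the parents was taken on the CPM scale. Replicates are separate samples per the labels, which do not say how the pools of one letter relate, so p-values measure the spread between these samples. In letters D to G, C24 and Ler of the same letter deviated together (4 correlations, 0.336 to 0.478, against -0.393 to 0.305 for other letters), so these letters pair the samples by that check, and the values with the letter as a block stand beside the results they change. Levels are given per library, changes as log2 ± SE. CPM is not scaled by gene length, so levels of different genes are not compared as transcript numbers.

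The 43 genes, the lists and the tests were chosen with earlier results of these data known. Genes named are the 12 with the highest C24 level, the 6 highest and 6 lowest in C24 hybrids relative to 0.5 times C24 (at 5 CPM or more in C24), up to 6 called per test other than C24 against Ler and C24 hybrids against Col/Ler hybrids, the 6 with the highest C24 level among those not called in D to G, and the 3 with the smallest and the 3 with the largest ratio plus the 3 genes just outside. Others named were chosen after their values were seen. Gene types, starts and upstream windows came from NCBI's TAIR10.1 annotation, which matched 32565 of the loci. Copies were sought with BLAST 2.17.0 (megablast) against that genome.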

Additional observations from a re-analysis of the deposited data

Results flagged for a closer look

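Single libraries stood apart from the rest of their group in 7 of 108 groups of 4 or more libraries, by the gap to the nearest library over the range of the group. Chance flags about 1 in 20 groups. AT1G66860 was high in C24 B at 33.2 CPM (scaled over 30 libraries). In the Ler group AT1G61500 (31.7 CPM) and AT5G53700 (18.8 CPM) were high in Ler D. AT2G15160 (0.0981 CPM) and AT4G07874 (0.0218 CPM) were high in Ler E, and AT2G12290 (0.0125 CPM) in Ler A, all at a few counts. SCPL12 was low in C24xLer D at 17.0 CPM.

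The libraries lettered C with a C24 parent, used in no comparison above, carried most of the 43 genes. No count was found for 6 of the 43 in C24 C, 8 in C24xLer C and 8 in LerxC24 C, against 29 in Ler C. Their summed level was 700 CPM in C24 C, 418 CPM in C24xLer C and 411 CPM in LerxC24 C, against 42.9 CPM in Ler C.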

How the results depend on the processing

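With a ratio of 4 instead of 8 the rule gave 105 genes, and with C24 at 5 CPM or more 28. Leaving out 1 of the 6 libraries gave 42 to 46. With C24 D to G as the C24 level, the median relative to 0.5 times C24 was 0.842 in C24xLer, 0.640 in LerxC24, 0.925 in C24xCol and 0.918 in ColxC24. In C24xCol it was 0.994 with DESeq2 size factors and 0.986 for genes at 5 CPM or more. With 1 library of the hybrid or of C24 left out it was 0.927 to 1.00 in C24xLer, 0.666 to 0.811 in LerxC24, 0.974 to 1.02 in C24xCol and 1.00 to 1.05 in ColxC24. All 43 genes were called between C24 hybrids and Col/Ler hybrids under each other setting, and 42 to 43 with 1 library left out. Between C24/Ler and C24/Col hybrids, 6 became 1 with C24xLer alone (an alternative chosen after seeing the data) and 1 to 6 with 1 library left out. Between C24xLer and LerxC24, DESeq2 called 2 where edgeR called 0. In D to G, 35 became 23 of 41 tested with the libraries lettered C, where 204 of 29213 genes were called higher. It became 29 to 35 with 1 library left out. Against 0.5 times C24 instead of the mean of the parents 3 genes were lower (AT1G36078, AT5G26345 and AT5G28463). Over all 29851 genes, 25 were called lower and 26060 higher, with a median of 0.98. For a gene expressed in both parents 0.5 times C24 lies below their mean, so the 25 are no background for the 3. AT1G66860 ran from -0.050 (without C24 F) to 0.79 (without C24 D) between C24 and Ler with 1 library left out. For single named genes, 53 values under other settings lost their call, 15 gained one, 1 turned and the rest kept theirs. Counts over all genes are not given for fits with 1 library left out. A change in the 43 cannot be told apart there from one over all genes. The causes were not tested.

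With the letter as a replicate block, 13 genes differed between C24/Ler and C24/Col hybrids (12 lower and 1 higher) and 1, AT4G29200, between C24xLer and LerxC24. The letters A and B of 15 pairs of hybrid genotypes deviated together (correlations of 0.263 to 0.488), but 2 letters do not make a pairing by the check used. At an unadjusted p below 0.05 the block gave 24 genes in place of 15 between C24xLer and LerxC24, 3 in place of 0 between C24xCol and ColxC24, and 17 in place of 11 for the difference of these directions. The share of all genes passing rose too, from 3.7% to 7.08%, from 2.45% to 5.2% and from 2.3% to 5.01% in that order. Of all genes, the block called 2128 in place of 820 higher in C24 hybrids than in Col/Ler hybrids. It called 3188 in place of 1433 lower in C24/Ler than in C24/Col hybrids. Between C24 and Ler it called 3052 in place of 1139 higher in C24. It moved no other called count of the 43 genes by over 1.5 times. The libraries lettered C held 13198638 to 20435372 counts, which limits low genes there. Genes at 0 there were not only low ones. AT2G13140, with 1802 and 2115 counts in C24 A and B, had no count in C24 C, C24xLer C and LerxC24 C. AT2G12290, AT2G12410 and AT2G12740, also low in C24 E, F and G, had none there either. The reason was not tested.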
